A study of Mus musculus with 6 samples.

Results

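Interferon regulatory factors are transcription factors that turn signals from pathogen sensors and from interferons into transcription. The genes described here are the 8 of this family with a row of their own on the arrays used (Irf1, Irf2, Irf3, Irf4, Irf5, Irf7, Irf8 and Irf9), out of 19938 genes tested. They were chosen by name and not by their values. Each array row is called a transcript cluster, and only clusters annotated to 1 gene symbol were used. The 8 genes had 9 clusters, since Irf1 had 2, and no cluster listed one of them together with another gene. Through their gene identifiers, all 8 were found in RefSeq (GRCm38.p6).

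The study asked which surface receptor binds sFNDC4, the secreted form of FNDC4, and for this it sorted cells by how much of the protein they bound. The cells were immortalized preadipocytes of the stromal vascular fraction of inguinal white fat from male 129SVE mice. High binding cells (HBC) and low binding cells (LBC) were separated by repeated cell sorting after incubation with FcsFNDC4, which is sFNDC4 fused to a human Fc part, and both groups were profiled at passage 20. HBC and LBC each stand for 1 sorted population of the same immortalized cells, measured on 3 arrays that the methods call technical replicates. All p-values below therefore measure the spread between arrays, and the spread between independent sorts was not measured. Both groups share the immortalization and the sorting. The sources used here do not state the age of the mice. Arrays were grouped by title, because for LBC replicates 2 and 3 the source name says HBC while title, description and phenotype say LBC. On Irf7 and Irf9 both arrays lay with LBC replicate 1, as given below.

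In textbook accounts, Irf3 and Irf7 are phosphorylated after nucleic acid sensing, enter the nucleus and switch on the interferon genes. Irf9 acts on the other side of the loop, where it joins Stat2 in ISGF3, the complex that carries the signal of the type I interferon receptor to the promoters of interferon-stimulated genes. Irf7 is itself such a gene. All family members bind variants of a GAAA repeat, the interferon-stimulated response element (ISRE), through a shared DNA binding domain. Irf4 and Irf8 are best known from lymphoid and myeloid cells, although Irf4 also has a role in fat cells.

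Of the 8 genes, Irf7 and Irf9 rose in HBC and none fell. A gene was called when its adjusted p was under 0.05 in limma and its fold above 1.5 on the scale of log2(intensity + 16). By this rule 2 of 8 interferon regulatory factors were called higher, beside 2.54% of all genes tested, and 0 of 8 were called lower, beside 1.13% of all genes. With no fold threshold, 4 of 8 were higher (Irf7, Irf9, Irf5 and Irf1), beside 6.93% of all genes, and 0 of 8 lower, beside 11.4%. The 3 HBC arrays lay above the 3 LBC arrays for 5 of 8 genes, as for 10.1% of all genes, and below them for 1 of 8, Irf3, as for 25.1% of all genes. In either direction this makes 35.2% of all genes whose groups did not overlap. The groups overlapped for Irf4 and Irf8. The median log2 fold change over all genes tested was -0.07, and all fold changes below are HBC minus LBC without a correction for it.

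**Figure D1:**
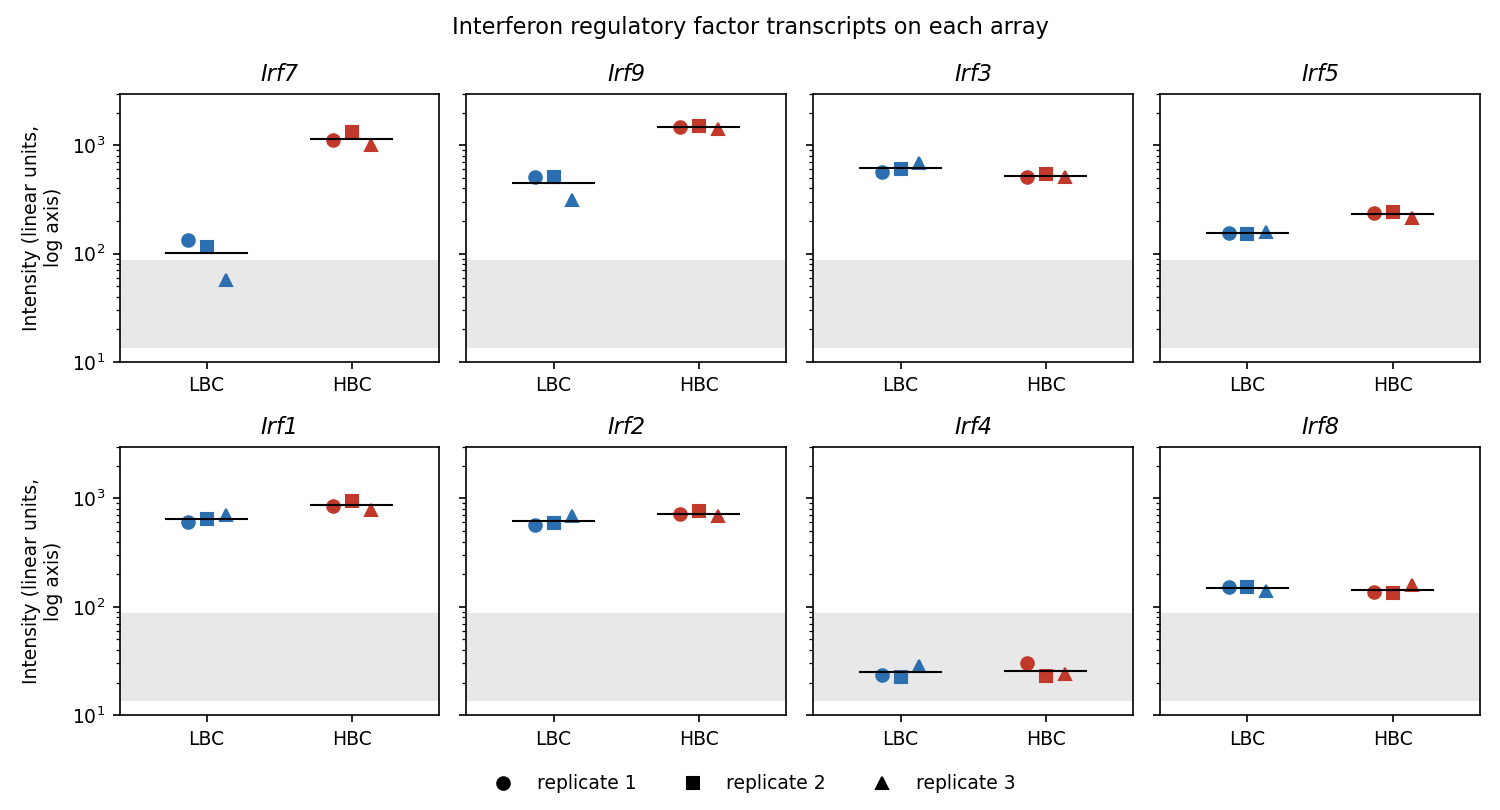
Deposited intensity (linear units drawn on a log axis) of each interferon regulatory factor in LBC (blue) and HBC (red), with the replicates as circles, squares and triangles, the group mean as a black line and, in grey, the span of the olfactory receptor genes, which stand for dim signal. Irf7 stood at 1153 in HBC against 102 in LBC and Irf9 at 1462 against 445, whereas Irf4 lay within the grey range in both groups.

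Irf7 (cluster 10569102), often called the master regulator of interferon alpha genes, read 1124, 1336 and 999 in HBC replicates 1, 2 and 3. In LBC it read 133, 115 and 57.3. The groups were far apart, with the lowest HBC array well above the highest LBC array. HBC averaged 1153 ± 170 (SD, n = 3 arrays) and LBC 102 ± 39.5 (SD, n = 3 arrays), a ratio of 11.3. The log2 fold change was 3.36 (SE 0.15, 95% interval 3.06 to 3.67, limma adjusted p = 2.43e-17). Irf7 had rank 9 among the rises of all genes tested. The study shows Irf7 in its own list of genes, picked on these arrays, so its direction here is not independent evidence. LBC replicate 3 read less than the other LBC arrays and fell within the range of olfactory receptor genes, which hold little or no transcript outside the nose and stand here for dim signal (10th to 90th percentile of 1027 genes, 13.8 to 86.1 in LBC). Without that array the log2 fold change of Irf7 was 3.05.

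Irf9 (cluster 10415319), the DNA binding subunit of ISGF3, read 1477, 1495 and 1414 in HBC. The LBC arrays gave 513, 507 and 315. Again no LBC array came near an HBC array, and again LBC replicate 3 was the lowest. HBC averaged 1462 ± 42.7 (SD, n = 3) and LBC 445 ± 113 (SD, n = 3), a ratio of 3.29. The log2 fold change was 1.71 (SE 0.12, 95% interval 1.47 to 1.95, limma adjusted p = 8.22e-13), rank 109 among the rises, and it was 1.49 without LBC replicate 3. The coefficient of variation of Irf7 was 38.8% in LBC and 14.8% in HBC, and that of Irf9 was 25.3% in LBC and 2.92% in HBC. Over the 12710 genes with a mean above 100, the median coefficient was 8.39% in LBC, with a 90th percentile of 13.8%, and 4.58% in HBC, with a 90th percentile of 8.73%. The spread of both genes among the LBC arrays was thus wider than that of at least 90% of the genes with a mean above 100. In whole cell populations, a smaller share of cells with a transcript and less transcript per cell cannot be told apart.

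Irf5 and Irf1 passed limma's test but not the fold threshold. Irf5 (cluster 10536898), which drives inflammatory cytokine genes downstream of Toll-like receptors, read 235, 242 and 212 in HBC. It read 154, 151 and 157 in LBC, where the arrays were close to each other and all below HBC. HBC averaged 229.8 ± 15.6 (SD, n = 3) and LBC 154 ± 3.21 (SD, n = 3), with a log2 fold change of 0.53 (SE 0.085, 95% interval 0.36 to 0.70, limma adjusted p = 2.16e-05). The interval corresponds to folds of 1.28 to 1.63 and so includes the threshold of 1.5. Under quantile, cyclic loess or median scaling the log2 fold change of Irf5 was 0.59, 0.62 and 0.60, and the gene was then called.

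Irf1 (cluster 10376060), which activates antigen presentation genes, read 851, 944 and 788 in HBC. The LBC arrays read 606, 653 and 699 and did not reach the HBC arrays. The means were 861 ± 78.8 (SD, n = 3) and 653 ± 46.6 (SD, n = 3), with a log2 fold change of 0.39 (SE 0.090, 95% interval 0.21 to 0.57, limma adjusted p = 0.0019). The upper end of the interval was a fold of 1.49, under the threshold. A second Irf1 cluster (10385870) read 94.2, 100.9 and 91.6 in HBC and 87.2, 87.9 and 97.2 in LBC. Its groups overlapped, and its log2 fold change was 0.06 (adjusted p = 0.662 in a limma fit over all clusters), and the difference between the 2 clusters was not tested. Averaged over both clusters, the log2 fold change of Irf1 was 0.23 and no longer passed the test (limma adjusted p = 0.0674).

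Irf2 and Irf3 moved little. Irf2 (cluster 10571705), which competes with Irf1 for the same DNA element, read 714, 761 and 692 in HBC and 573, 596 and 686 in LBC. All HBC arrays were above all LBC arrays, but LBC replicate 3 came within a few units of HBC replicate 3, and the log2 fold change of 0.22 (95% interval 0.04 to 0.40) did not pass the test (limma adjusted p = 0.082). Irf3 (cluster 10552812), which is present in resting cells and is activated by phosphorylation, read 514, 540.0 and 506 in HBC against 564, 599.6 and 681 in LBC. It was the one member with every HBC array below every LBC array, yet its log2 fold change of -0.23 (95% interval -0.41 to -0.05) did not pass either (limma adjusted p = 0.067). Both passed the test, still under the fold threshold, under quantile scaling (adjusted p = 0.00165 for Irf2 and 0.00609 for Irf3) and under some other settings, so this outcome depended on the processing. Phosphorylation and nuclear entry of Irf3 and Irf7 are not read by these arrays.

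Irf4 and Irf8, the members tied to lymphoid and myeloid cells, gave no difference that could be told from the spread. Irf4 (cluster 10404389) read 30.5, 22.8 and 24.0 in HBC and 23.6, 22.5 and 28.3 in LBC, all inside the olfactory receptor range, so its transcript was not told from dim signal in either group. Its log2 fold change was 0.03 (95% interval -0.15 to 0.22, limma adjusted p = 0.844). Irf8 (cluster 10576034) read 138, 134 and 159.9 in HBC and 154, 153 and 138 in LBC, above the olfactory receptor range of both groups. Its log2 fold change was -0.04 (95% interval -0.22 to 0.14, limma adjusted p = 0.774), so folds from 0.86 to 1.10 remain possible on these arrays. Neither gene kept its sign under every scaling and left-out array.

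**Figure D2:**
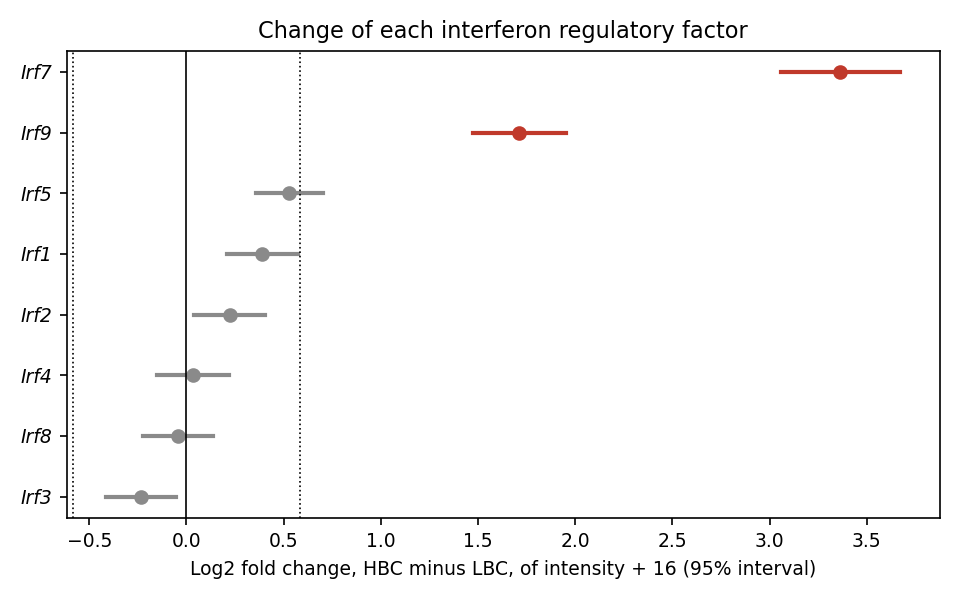
Log2 fold change of intensity + 16, HBC minus LBC (points), with the 95% interval of the limma fit (bars) for each interferon regulatory factor, the called genes in red and dotted lines at a fold of 1.5 in either direction. The intervals of Irf7 (3.06 to 3.67) and Irf9 (1.47 to 1.95) lay past the dotted line, and that of Irf5 (0.36 to 0.70) crossed it.

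The promoters of the genes are shown next, because Irf7 and Irf9 are known as interferon-induced genes and the family binds its own members' promoters. RefSeq windows of GRCm38.p6 (250 bases before to 50 after an annotated start) were given for all 8 genes, 11 windows in all, and were searched on both strands. The ISRE core was searched as GAAANNGAAA and the STAT element GAS as TTCNNNGAA. In the windows of Irf1 and Irf2 printed here, capitals mark these matches. A second window of Irf1 (chr11:53770223-53770522) held neither motif and is not printed.
Irf1 (chr11:53769764-53770063, plus strand): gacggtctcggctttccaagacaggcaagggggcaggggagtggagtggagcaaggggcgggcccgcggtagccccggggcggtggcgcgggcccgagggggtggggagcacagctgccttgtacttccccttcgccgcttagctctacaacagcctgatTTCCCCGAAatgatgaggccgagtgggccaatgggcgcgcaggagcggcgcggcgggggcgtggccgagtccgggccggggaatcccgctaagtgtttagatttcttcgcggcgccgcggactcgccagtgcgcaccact
Irf2 (chr8:46739495-46739794, plus strand): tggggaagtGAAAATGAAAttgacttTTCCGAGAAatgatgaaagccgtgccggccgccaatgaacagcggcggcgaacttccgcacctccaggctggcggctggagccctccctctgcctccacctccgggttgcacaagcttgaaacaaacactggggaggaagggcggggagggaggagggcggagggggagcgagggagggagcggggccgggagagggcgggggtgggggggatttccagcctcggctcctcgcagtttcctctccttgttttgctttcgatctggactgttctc
In the windows of Irf7 and Irf9, which held neither of these motifs, capitals mark single GAAA repeats (TTTC on the other strand), a search added after the data were seen. A second window of Irf9 (chr14:55604329-55604628), with 3 single repeats, is not printed.
Irf7 (chr7:141266375-141266674, minus strand): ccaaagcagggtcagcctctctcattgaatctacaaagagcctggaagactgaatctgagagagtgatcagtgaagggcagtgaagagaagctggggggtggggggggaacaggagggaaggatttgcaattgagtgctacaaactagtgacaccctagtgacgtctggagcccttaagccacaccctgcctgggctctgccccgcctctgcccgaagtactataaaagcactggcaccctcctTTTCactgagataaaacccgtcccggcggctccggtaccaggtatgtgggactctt
Irf9 (chr14:55603735-55604034, plus strand): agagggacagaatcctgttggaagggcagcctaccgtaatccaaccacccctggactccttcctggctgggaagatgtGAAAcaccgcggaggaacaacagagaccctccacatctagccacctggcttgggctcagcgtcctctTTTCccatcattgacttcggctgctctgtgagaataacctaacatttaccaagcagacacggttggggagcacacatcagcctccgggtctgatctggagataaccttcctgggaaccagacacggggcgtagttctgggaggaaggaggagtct
The ISRE core was found in 1 of 8 genes, Irf2 (GAAAATGAAA, bases -241 to -232 from the start), and in 3.99% of 27025 genes with a window. GAS was found in 3 of 8 genes and in 9.55% of all genes. The matches were TTCCCCGAA in Irf1, at bases -90 to -82, TTCCGAGAA in Irf2, at bases -224 to -216, and TTCTCGGAA and TTCAGAGAA in Irf8. Single repeats are common, being found in 90.5% of all genes. The called members Irf7 and Irf9 were therefore not those with a match, and the RefSeq span of Irf7 begins upstream of the start used for its window, at a base that still lies inside the window. A match of letters is a description of the sequence and does not show binding.

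Known targets of ISGF3 were higher in HBC as well. All 16 measured genes of a textbook list were called higher (100%, beside 2.54% of all genes), and the median of their log2 fold changes was 2.79 beside -0.07 over all genes. Oas2, Oas1a and Oas3, the synthetases that activate the antiviral nuclease RNase L, rose by 4.55, 3.28 and 3.27 on the log2 scale. Zbp1, a sensor of Z-form nucleic acid, rose by 3.17, Oasl2, an OAS-like protein, by 3.06, and Mx2, a dynamin-like GTPase, by 2.85. In LBC, the means of 6 of the 16 genes, Oas2, Oas1a, Oas3, Zbp1 and Mx2 among them, lay within the olfactory receptor range, so their LBC level was not told from dim signal and the size of their fold is uncertain. Some of these genes (Oas1a, Oas2, Oas3, Mx2 and Zbp1) are in the list that the study picked on these arrays, so the direction of the list is not independent evidence. The intensities of the 16 genes summed to between 24394 and 32004 on the HBC arrays and to between 3813 and 5337 on the LBC arrays. Isg15 had no cluster of its own and Ifi44 was not analysed here.

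Of 13 listed ISGF3 targets with a RefSeq window, 8 (61.5%) held the ISRE core, against 3.99% of all genes. The list was made of genes known to carry an ISRE, so a high share follows from how it was chosen. The 8 include Isg15, which had no value of its own. Stat2, which partners Irf9 in ISGF3, held the core as well. The sites below show the element in 5 of the genes with values in this report, with the core in capitals and 6 bases on either side, in GRCm38.p6.
Oas1a (chr5:120907530-120907551, minus strand): tctcggGAAATGGAAActgaaa
Oas3 (chr5:120777719-120777740, minus strand): ggaggaGAAAACGAAAgtgaag
Ifit1 (chr19:34640779-34640800, plus strand): cttcagTTTCACTTTCcagtct
Rsad2 (chr12:26456557-26456578, minus strand): tccaacTTTCATTTTCagaaaa
Stat2 (chr10:128270270-128270291, plus strand): ccctggTTTCAGTTTCctttcc
The core reads as GAAA repeats in Oas1a and Oas3 and as TTTC repeats, on the opposite strand, in Ifit1, Rsad2 and Stat2. All 5 genes were called higher in HBC, but so were all 16 measured genes of the target list, with or without a match. The calls therefore cannot link the core to the rise.

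Within the path from an interferon to ISGF3, Stat2 was called higher and the subunits of the type I interferon receptor were not called. Stat2 read 1772, 1935 and 1619 in HBC and 366, 377 and 272 in LBC, with LBC replicate 3 once more the lowest and no overlap. Its log2 fold change was 2.35 (SE 0.10, limma adjusted p = 1.36e-17). Stat2 was the single call among 10 measured genes of receptors, Janus kinases and STATs (10%, beside 2.54% of all genes called higher). The receptor subunit Ifnar1 had a log2 fold change of -0.08 (adjusted p = 0.544). The other subunit, Ifnar2, had 0.31 (adjusted p = 0.0114), which passed the test but stayed under the fold threshold. With no fold threshold, 4 of the 10 genes were higher, Stat2 and Ifnar2 among them, beside 6.93% of all genes.

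The interferon genes, which Irf3 and Irf7 switch on, were not called in either direction. Of 16 measured ligand genes, 0 were called by limma, 2 had an unadjusted p under 0.05, and 10 lay within the olfactory receptor range in both groups. For counts at an unadjusted p under 0.05, here and below, the share over all genes was not computed. At an adjusted p under 0.05 in limma, 6.93% of all genes were already higher and 11.4% lower. Such counts alone therefore do not set a list apart. Ifnb1, the interferon beta gene, read 60.5, 63.8 and 72.2 in HBC and 73.8, 69.4 and 51.6 in LBC, which overlapped and lay within that range. The largest changes were those of Ifna13, at a log2 fold change of -0.25 (adjusted p = 0.0578), and Ifnz, at -0.21 (adjusted p = 0.090). Several interferon alpha genes share their clusters and were not analysed here. Of 7 measured genes that Irf3 can bind directly, 5 (71.4%) were called higher, beside 2.54% of all genes. These were Ifit3 (2.83), Rsad2 (2.75), Ifit1 (2.42), the chemokine gene Cxcl10 (1.51) and Ifit2 (1.20), 4 of which are also ISGF3 targets. The chemokine gene Ccl5 had a log2 fold change of 0.19 and did not pass.

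Upstream of Irf3 and Irf7, 5 of 12 measured sensors and adaptors (41.7%) were called higher and 0 lower, beside 2.54% and 1.13% of all genes. Dhx58 and Ifih1, which with Ddx58 form the family of cytosolic RNA sensors, rose by 2.89 and 2.50 on the log2 scale, and Ddx58 by 1.45. Tlr3, the endosomal receptor for double-stranded RNA, rose by 2.17, and Myd88, the adaptor of most Toll-like receptors, by 0.73. Mavs, the mitochondrial adaptor through which the RNA sensors signal, had a log2 fold change of 0.15 and was not called (adjusted p = 0.235). Of 4 measured kinases, 0 were called by limma and 2 had an unadjusted p under 0.05. Tbk1, the main kinase of Irf3, had a log2 fold change of 0.05 (adjusted p = 0.734), its relative Ikbke 0.35 (adjusted p = 0.00304, under the fold threshold), and Ikbkb, the kinase of Irf5, -0.19 (adjusted p = 0.128). Among 7 regulators and cofactors, Trim21, a ubiquitin ligase that acts on Irf3 and other family members, was the single call, at 1.64. This made 14.3% of that list, beside 2.54% of all genes.

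Of 12 measured textbook targets of Irf1, 6 (50%) were called higher and 0 lower, beside 2.54% and 1.13% of all genes, and the median was 0.73 on the log2 scale. They were the peptide transporter genes Tap1 (2.60) and Tap2 (1.35), the immunoproteasome subunit genes Psmb9 (2.22), Psmb8 (1.90) and Psmb10 (0.99), and Cd274 (0.90), which encodes PD-L1. Each is also known to respond to interferons through other factors. Of 6 inflammatory cytokine targets of Irf5, 0 were called by limma, 1 had an unadjusted p under 0.05 and all 6 were within the olfactory receptor range, with Il6 at 0.24 and Il23a at -0.14. Of 9 partners of Irf4 and Irf8, 0 were called and 6 had an unadjusted p under 0.05, Bcl6 at -0.44 (adjusted p = 0.000367) and Batf at -0.25 being the largest changes. Of 6 Irf4 targets and partners of adipocytes, 0 were called and 1 had an unadjusted p under 0.05, with Ppargc1a at -0.27 and Cidea at -0.20.

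**Figure D3:**
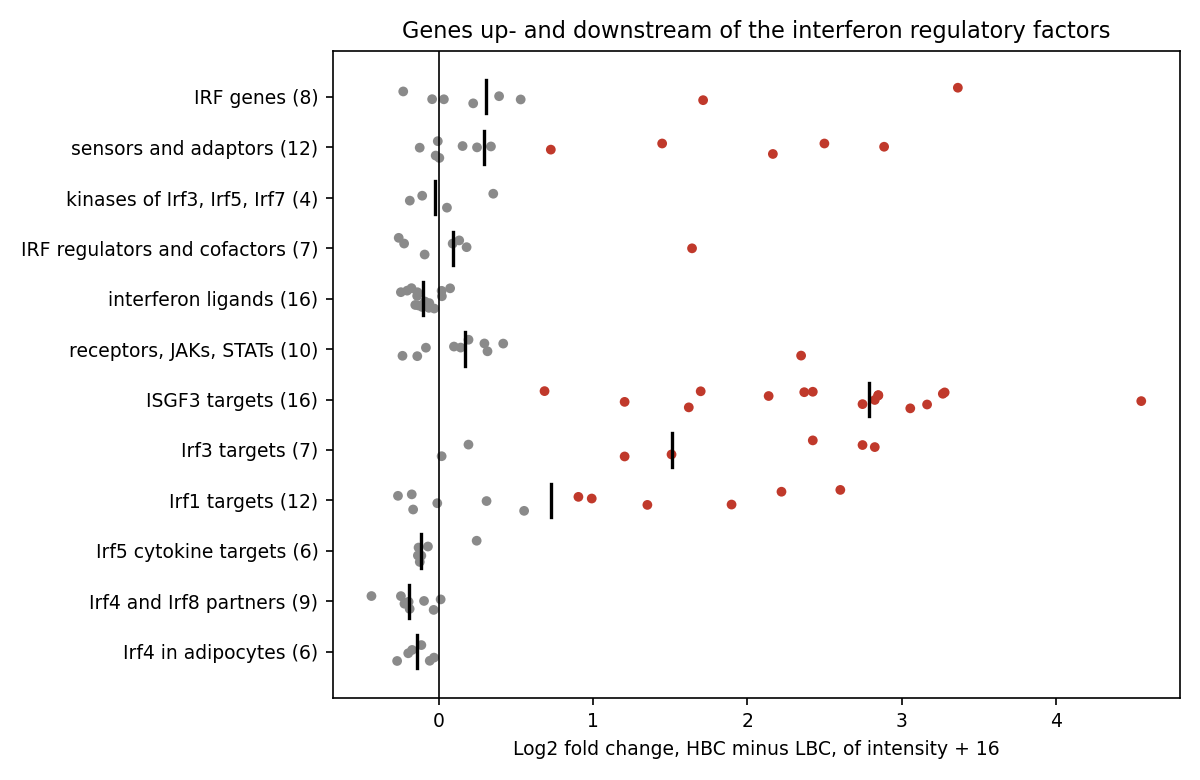
Log2 fold change of intensity + 16, HBC minus LBC, of each measured gene in the lists around the interferon regulatory factors (points, number of genes in brackets), called higher in red and not called in grey, with the list median as a black bar. All 16 ISGF3 targets and 5 of 12 sensors and adaptors were called higher, and none of the 16 interferon ligands.

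Over the 6 arrays, the genes nearest to Irf7 and Irf9 were other genes with the same step between LBC and HBC. Nearness was the Euclidean distance between profiles of log2(intensity + 16), each centred on its own mean over the 6 arrays. For Irf7 these were Cmpk2 (distance 0.337), a mitochondrial nucleotide kinase, Ifi203 (0.364), of the interferon-inducible p200 family, and Oas3 (0.382). For Irf9 they were Trim21 (0.271), Tnfsf10, which encodes the death ligand TRAIL (0.281), and Trim12c (0.316). The likeness rests mostly on the step between the groups, with 3 arrays on either side.

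**Figure D4:**
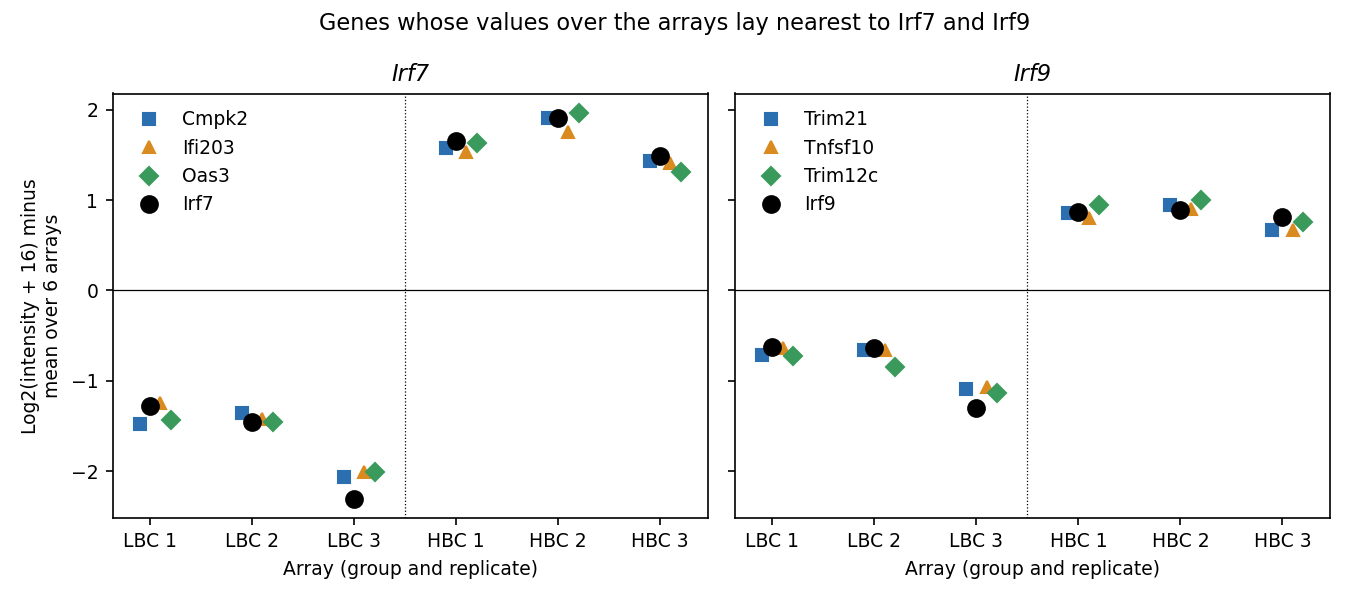
Log2(intensity + 16) minus the mean over the 6 arrays for Irf7 (left) and Irf9 (right, black circles) and the 3 genes nearest to each (coloured points), by group and replicate. In both panels LBC replicate 3 lay lowest and HBC replicate 2 highest.

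The order of the arrays within a group was shared by these genes. LBC replicate 3 was the lowest LBC array for 15 of 16 ISGF3 targets (93.8%), against 38.8% of all genes, and for Irf7, Irf9 and Stat2. This was not particular to these genes. Of the marker lists given below, it was the lowest for 13 of 15 myeloid, 5 of 5 endothelial and 4 of 5 adipocyte markers, most of them dim. For lymphocyte and preadipocyte markers the counts were 4 of 9 and 1 of 12. HBC replicate 2 was the highest HBC array for 16 of 16 ISGF3 targets and HBC replicate 3 the lowest for 16 of 16, against 37.8% and 41.1% of all genes. Of the 8 interferon regulatory factors, 5 (Irf1, Irf2, Irf3, Irf4 and Irf5) had their highest LBC value on LBC replicate 3, so the array was not low for all members. This was common, since 9981 of all 19938 genes tested had their highest LBC value there. What set these arrays apart was not tested.

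Of 15 myeloid markers, 0 were called by limma, 4 had an unadjusted p under 0.05, and 10 were within the olfactory receptor range in both groups. As above, counts at an unadjusted p have no share of all genes beside them and do not set a list apart. Their summed intensity was 1124 to 1169 in HBC and 1234 to 1332 in LBC. Mean values in HBC and LBC were 59.8 and 69.9 for Ptprc, 90.1 and 94.9 for Csf1r, and 30.9 and 38.8 for Lyz2. The largest change was that of Cd14, at 107 in HBC and 154.5 in LBC (log2 fold change -0.48, limma adjusted p = 8.86e-05), which passed the test but not the fold threshold. Of 9 lymphocyte markers, 0 were called by limma and 4 had an unadjusted p under 0.05, with sums of 524 to 578 in HBC and 593 to 633 in LBC, and Cd3e was at 143 and 140.5. Of 5 endothelial markers, 0 were called and 2 had an unadjusted p under 0.05, with sums of 242 to 293 in HBC and 257 to 315 in LBC. Of the preadipocyte markers, Pdgfra was at 4096 in HBC and 3166 in LBC (limma adjusted p = 0.00288). Col1a1 was at 4690 and 3685 (limma adjusted p = 0.00586), and both stayed under the fold threshold. Cd34 was at 134 in HBC and 189 in LBC (log2 fold change -0.45, limma adjusted p = 0.000188, under the fold threshold), and Thy1 at 149 and 166 (adjusted p = 0.275). Among 12 such markers Col3a1 was called higher (0.80) and Dcn lower (-0.78), and 9 had an unadjusted p under 0.05. Adipoq, which marks mature fat cells, was within the olfactory receptor range at 43.0 in HBC and 40.7 in LBC, and 0 of 5 adipocyte markers were called, with 1 at an unadjusted p under 0.05. That one was Fabp4, a fatty acid binding protein gene, at 2363 in HBC and 1774 in LBC (log2 fold change 0.42, limma adjusted p = 0.00132, under the fold threshold). Cd14, Cd34, Thy1 and Fabp4 were named after their values had been seen.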

How the data were processed

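RNA of 3 HBC and 3 LBC samples was read on Affymetrix mouse gene arrays. The authors deposited linear intensities, for which the submitters' processing notes name Affymetrix Expression Console. The sources used here state neither its version nor the summary method or normalization. The methods give version 2.0 of the array, but the identifiers in the table are those of an earlier design. Of 35556 transcript clusters, 21789 had 1 gene symbol and were used, those with several symbols (1621) or none (12146) were not, and each gene was read from its brightest cluster, which left 19938 genes. The number of arrays limits the precision.

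HBC and LBC, grouped by title, were compared on log2(intensity + 16) with limma 3.58.1 (lmFit and eBayes) in R 4.3.3, without a block, with Benjamini-Hochberg adjustment over all genes. The added 16 makes fold changes of dim genes smaller. The shared variance prior had 24.9 degrees of freedom against 4 residual ones, so the exponent of a very small adjusted p carries little meaning. The procedure was also run on simulated data with noise drawn independently for each gene and array. No result here rests on that run. Array medians ran from 122 to 132 in HBC and from 131 to 134.6 in LBC, where LBC replicate 3 had the lowest. The 75th percentile was 541 on LBC replicate 3, against 469 and 489 on LBC replicates 1 and 2 and 470 to 499 in HBC.

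The members and gene lists were chosen with earlier results of these data known, and the search for single GAAA repeats, the gene neighbours, the dim range of list genes and the coefficients of variation were added after the values were seen. Named were the 8 members, up to 6 called genes per pathway list (up to 2 in lists with no call), a few preset pathway and marker genes, and the 3 genes nearest to each called member. Promoter windows came from RefSeq (GRCm38.p6). Coordinates of genes are not given, since no build is named for the array annotation, and protein sequences were not analysed here. The alternatives were scaling, offset, filter on dim genes, test, variance prior, choice of cluster, block, fold threshold and left-out arrays.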

Additional observations from a re-analysis of the deposited data

How the results depend on the processing

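Irf7 and Irf9 stayed called, in the same direction, under all 22 alternatives, with log2 fold changes of 3.01 to 3.57 and 1.64 to 1.79 over the settings and 3.05 to 3.56 and 1.49 to 1.83 with an array left out. Their adjusted p ran from 7.43e-214 to 0.02 and from 2.17e-56 to 0.0336, the highest values being those of the methods' t-test. Irf5 was called under quantile (0.59), cyclic loess (0.62) and median scaling (0.60), and Irf5 and Irf1 with no fold threshold, when 4 members were higher. Irf8 turned to 0.0225, 0.0452 and 0.028 under quantile, cyclic loess and median scaling, and ran from -0.12 to 0.001 with an array left out, turning without HBC replicate 2 (0.001). Irf4 ran from -0.0473 to 0.0925 with an array left out, turning without HBC replicate 1 (-0.0473) and without LBC replicate 2 (-0.0081), and dropped out where a mean intensity above 100 was asked for. Irf1, Irf2 and Irf3 kept their direction, but not their side of the adjusted p threshold. Irf1 lost it under the methods' t-test (0.105) and with the mean of its clusters (log2 fold change 0.23, 0.0674), within a range of 0.00029 to 0.105. Irf2 passed it under quantile (0.00165) and cyclic loess scaling (0.00102), both intensity filters (0.0432 and 0.0446) and without LBC replicate 3 (0.0063), within 0.00102 to 0.299. Irf3 passed it under quantile (0.00609) and cyclic loess scaling (0.0218), an added 50 (0.0418), both intensity filters (0.0339 and 0.0351) and without LBC replicate 1 (0.0253), within 0.00609 to 0.358. With the replicate number as a block, calls stayed at 507 higher and 225 lower over all genes and at 2 and 0 members. Arrays that share a number had deviations that correlated at -0.10, -0.24 and -0.50, so the numbers do not pair the arrays. Between different numbers, HBC replicate 3 with LBC replicate 1 gave 0.495 and HBC replicate 2 with LBC replicate 3 gave 0.453. The lowest such value was -0.468, for HBC replicate 2 with LBC replicate 1. Whether arrays of the 2 groups share a source of variation was not tested.

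Over all genes, 507 were called higher and 225 lower. With no fold threshold these were 1381 and 2274, with a fold above 2 they were 236 and 44, and with an array left out they ran from 478 to 552 and from 179 to 301. Under quantile, cyclic loess and median scaling they were 555 and 191, 595 and 161, and 599 and 167. With mean intensity above 100 in both groups, the 10 ISGF3 targets left were all called. With no fold threshold, 1 kinase (Ikbke), 4 of the receptors, Janus kinases and STATs, and 1 Irf5 cytokine target (Il6) were higher, and 1 regulator (Irf2bp1), 1 Irf1 target (Casp1), 2 partners of Irf4 and Irf8 (Bcl6 and Batf) and 1 adipocyte gene (Ppargc1a) were lower. Over all genes, 6.93% were higher and 11.4% lower at that setting. With 3 repeats of GAAA in place of 2, 0.133% of genes and 0 members had a match. Causes of these changes were not tested. LBC replicate 3 reads Irf7 within the range of dim signal, which limits the precision of its fold.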

Other observations

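Genes beside the members in the genome were read after the values had been seen, the 2 nearest measured genes on either side of each. Of 32 such neighbours, 1 was called higher (3.12%, close to the 2.54% of all genes) and 0 lower. The call was Psme2, a subunit gene of the proteasome activator PA28, beside Irf9, where HBC averaged 2456 ± 145 (SD, n = 3) and LBC 1588 ± 149.5 (SD, n = 3) (log2 fold change 0.63, limma adjusted p = 3.24e-06). Rnf31, a ubiquitin ligase gene between Psme2 and Irf9, had a log2 fold change of 0.45 (limma adjusted p = 0.000193) and was not called. On either side of Irf7, Phrf1 and Cdhr5 had log2 fold changes of -0.19 and -0.10 and were not called (limma adjusted p = 0.142 and 0.52).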
